A study of Mus musculus with 36 samples.

Results

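Whole-genome bisulfite sequencing of mouse liver was read here at 9 imprinted genes of chromosome 7 whose domains are governed by DNA methylation inherited from the mother: Peg3, Zim1, Snrpn, Ndn, Magel2, Mkrn3, Kcnq1, Cdkn1c and Phlda2. Each locus ran from 10000 bp before to 10000 bp after the annotated gene in the mm9 build, and its CpGs were grouped into windows of 500 bp. Windows with fewer than 5 CpGs, or with fewer than 30 reads in any animal, were dropped, which left 389 windows at the 9 loci of 1456902 over all autosomes. The loci were set by gene name, in a choice made with earlier results of these data known, and the Peg3 and Zim1 loci overlap.

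The study crossed C57BL/6N (B6) and C3H/HeN (C3) mice in both directions and sequenced liver DNA of parents and offspring. There were 24 animals in 8 groups of 3: B6 males, B6 females, C3 males, C3 females, and sons and daughters of each cross. B6C3F1 animals had a C57BL/6N dam and a C3H/HeN sire, and C3B6F1 animals had a C3H/HeN dam and a C57BL/6N sire. Parents were mated at 10 weeks and all animals were sacrificed at 20 weeks, so the dams had borne litters while the F1 daughters were virgins. No animal carried an engineered allele or received a treatment. Parents and offspring came from 3 nuclear families per cross, the labels do not tie an animal to its family, and the tests below treat animals as independent.

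Total counts over the autosomal CpGs ran from 365740739 to 619888157 per animal, or 19.4 to 32.8 reads per CpG. Promoters of 5 hepatocyte genes, among them Alb, which encodes albumin, averaged 26.3 to 37.0% methylation, while those of the leukocyte genes Ptprc and Cd79a averaged 76.9% and 84.1% and that of Lck 5.89%. FOXA1 immunoprecipitation samples of the series were not analysed here.

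In an imprinted domain the maternal and paternal copies of 1 chromosome carry different methylation, and a copy-specific mark pooled over both copies appears as an intermediate level. At a maternally methylated germline, or primary, differentially methylated region the mark is laid down in the oocyte and kept through development. Secondary regions acquire their methylation after fertilization under the control of the primary one. The primary regions of these domains lie at the start of Peg3, at the start of Snrpn and at the start of Kcnq1ot1, an RNA transcribed antisense to Kcnq1 from within one of its introns. Snrpn, Ndn, Magel2, Mkrn3 and Peg3 are expressed from the paternal copy, whereas Zim1, Kcnq1, Cdkn1c and Phlda2 are expressed from the maternal copy. The deposited counts pool both copies, so which parental copy held the methylation was not measured.

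The 200 bases before 5 of the starts are given first. They are short stretches at the 3 starts with primary regions and at the secondary Mkrn3 start. The wider region at the Mkrn3 start, described below, did not overlap between the crosses. Zim1 is added as a start that was almost free of methylation. All are from the minus strand of mm9, written 5′ to 3′ in the direction of the gene, with each CG in capitals. They lie at chr7:6683133-6683332 (Peg3), chr7:67150043-67150242 (Snrpn), chr7:150482453-150482652 (Kcnq1ot1), chr7:69565040-69565239 (Mkrn3) and chr7:6649162-6649361 (Zim1).
Peg3: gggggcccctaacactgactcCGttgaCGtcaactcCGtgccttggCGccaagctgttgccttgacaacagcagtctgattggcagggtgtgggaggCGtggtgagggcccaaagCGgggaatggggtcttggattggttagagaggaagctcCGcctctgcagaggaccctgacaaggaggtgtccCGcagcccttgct
Snrpn: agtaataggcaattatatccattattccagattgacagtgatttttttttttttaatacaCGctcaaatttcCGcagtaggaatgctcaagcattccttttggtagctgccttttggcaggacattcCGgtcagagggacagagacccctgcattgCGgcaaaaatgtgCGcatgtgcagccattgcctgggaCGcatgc
Kcnq1ot1: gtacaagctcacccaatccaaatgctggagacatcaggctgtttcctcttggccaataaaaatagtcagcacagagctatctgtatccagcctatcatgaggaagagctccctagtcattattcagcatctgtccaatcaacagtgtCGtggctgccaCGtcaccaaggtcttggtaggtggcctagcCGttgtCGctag
Mkrn3: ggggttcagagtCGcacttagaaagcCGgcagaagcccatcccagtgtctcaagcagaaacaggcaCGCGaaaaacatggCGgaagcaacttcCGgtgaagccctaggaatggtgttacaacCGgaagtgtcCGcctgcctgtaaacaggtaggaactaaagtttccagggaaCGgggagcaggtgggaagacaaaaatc
Zim1: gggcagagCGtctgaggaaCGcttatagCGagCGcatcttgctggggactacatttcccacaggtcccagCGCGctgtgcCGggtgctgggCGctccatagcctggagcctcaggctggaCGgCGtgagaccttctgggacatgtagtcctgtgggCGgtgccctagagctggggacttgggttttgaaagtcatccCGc
Over all 24 animals the 8 CpGs before Peg3 averaged 49.8%, the 6 before Snrpn 49.0% and the 4 before Kcnq1ot1 43.7%. The 9 CpGs before Mkrn3 averaged 26.2%, with single CpGs from 11.3 to 41.3%. The 12 CpGs before Zim1 averaged 1.15%, the least of the 5 although this stretch held the most CpGs. In B6C3F1 and C3B6F1 the Snrpn stretch averaged 59.7% ± 9.52 and 32.1% ± 11.3 (SD, n = 6 each). The Peg3 stretch averaged 57.0% ± 9.03 and 44.7% ± 7.36, and the Mkrn3 stretch 23.2% ± 4.77 and 32.5% ± 4.25. Kcnq1ot1 stood at 46.6 and 40.7% and Zim1 at 1.14 and 1.15%. These differences over the stretches were not tested.

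The question asked of each window was whether its level stayed near 50% in every group, from 35 to 65% in each of the 8 group means. It did in 48 of the 389 windows (12.3%), beside 65490 of the 1456902 autosomal windows (4.50%). Peg3 held 14 such windows of 43 tested, but Kcnq1 14 of 205. Magel2 held 5 of 20, Snrpn 4 of 33, Cdkn1c 4 of 24, Phlda2 3 of 26, Ndn 2 of 9 and Mkrn3 2 of 12. Zim1 held 1 of 28, and that window lay also within the Peg3 locus. Over the 9 loci pooled, 64.8% of windows were above 80% methylation, beside 66.8% over all autosomes, but the loci differed. Such windows were 164 of the 205 at Kcnq1 and 13 of the 26 at Phlda2. The share was 85.7% at Zim1 and 60.5% at Peg3, but 42.4% at Snrpn, 33.3% at Cdkn1c, 30.0% at Magel2, 25.0% at Mkrn3 and 11.1% at Ndn. Windows below 20% methylation made up 3.08%, beside 4.85% over all autosomes.

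A mean near 50% could come from CpGs that are each near 50% or from a mixture of high and low CpGs. Of the 57 windows whose 24-animal mean was in the band, 20 (35.1%) had at least 80% of their CpGs in the band too. Over all autosomes this held for 4.31% of 112889 windows. The Peg3 region held 11 of those 20 windows and the Snrpn and Kcnq1ot1 regions 4 each, and the remaining one lay beside Magel2. By annotation 22 of the 48 near-50% windows were intergenic, 22 intronic and 4 exonic, and 30 lay outside the regions at starts described next.

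**Figure D1:**
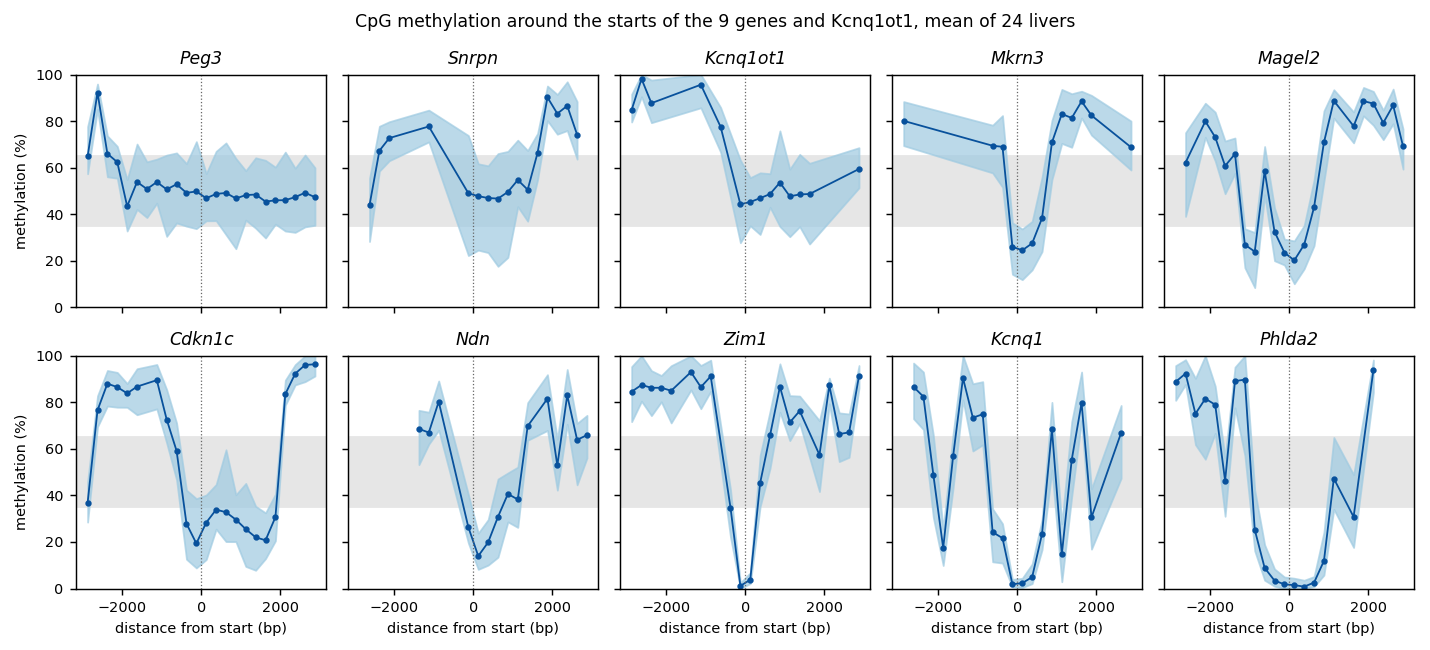
Methylation level (percent) against distance from the start of each gene (bp), in bins of 250 bp, with points for the mean of the 24 animals, blue shading for the lowest and highest animal and grey shading for 35 to 65%. The Peg3, Snrpn and Kcnq1ot1 starts sit on a plateau near 50%, whereas Zim1, Kcnq1 and Phlda2 dip to 1.15, 1.85 and 1.81% in the bin just before the start, and Mkrn3, Magel2, Cdkn1c and Ndn to between 14.0 and 24.5% within a bin of the start.

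Runs of at least 2 in-band windows, with gaps of up to 1 window allowed, gave 8 half-methylated regions, of which 4 lay at a start. A gap lay inside 3 of them: at the Mkrn3 start, where the middle window averaged 26.3%, in the Snrpn intron and upstream of Cdkn1c, where it averaged 82.2%. The Peg3 region, chr7:6680001-6685500, spanned the start of this zinc-finger gene, with 163 CpGs at a mean of 49.2%. Every one of those CpGs was itself from 35 to 65%, the extremes being 39.0 and 64.8%. Outside the region the flanking windows stood at 88.3% and 82.8%.

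The Snrpn region, chr7:67148501-67150500, covered the start of the gene for a splicing protein of the Prader-Willi domain, with 55 CpGs at 48.9%, 98.2% of them in the band. The Kcnq1ot1 region, chr7:150480501-150482500, lay in a Kcnq1 intron, with 102 CpGs at 48.4%, all in the band and between 42.3 and 55.2%. None of the 8 regions held a listed single-nucleotide variant (SNV) between the strains, and the 9 loci together held 53 such SNVs. Per locus the density ran from 0 SNVs per kb at Cdkn1c to 0.488 at Zim1, beside 1.14 over all autosomes.

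The Mkrn3 start differed in make-up. Its region, chr7:69564001-69565500, at the start of a gene for a ring-finger protein, had a mean of 41.7% over 72 CpGs, yet only 23.6% of those CpGs were in the band and single CpGs ran from 9.62 to 94.2%. The 4 regions away from starts, in a Snrpn intron, past the end of Mkrn3, and upstream of Cdkn1c and of Phlda2, were mixtures too, with 21.4 to 38.5% of CpGs in the band.

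As a whole, the Peg3 region ran from 44.2 to 52.3% over the 24 animals, the Kcnq1ot1 region from 41.5 to 52.9% and the Snrpn region from 39.4 to 55.7%. Pooled SDs within groups were 1.79, 3.27 and 3.62 percentage points. Single windows inside these regions varied more, with a median SD within groups of 5.85 points over their 19 in-band windows. The median was 4.83 points over the 57 in-band windows of the 9 loci and 4.46 over all autosomal in-band windows. The largest SD, 9.94 points, above 99.9% of the autosomal in-band windows, was in the window chr7:69528501-69529000 beside Magel2, which held 5 CpGs and ran from 37.0 to 75.0% between animals. At Snrpn the windows chr7:67150001-67150500 and chr7:67149001-67149500 had SDs of 9.11 and 8.30 points, above 99.7% and 99.3% of the autosomal in-band windows, and single animals ran from 22.9 to 70.1% and from 18.0 to 69.4%. The most variable window of the Kcnq1ot1 region, with an SD of 6.75 points, was above 95.4% of those windows, and that of the Peg3 region, with 6.49 points, above 93.7%. At single CpGs the variance between animals of a group was 0.927 times the variance expected from read counting at Peg3 and 0.994 times at Kcnq1ot1; at Peg3 the SD per CpG was 9.67 points, beside 10.0 expected from counting. At the CpGs with at least 20 reads in every animal, 22 in each region, the ratios were 1.03 and 0.957. The ratio was 1.10 at Snrpn and 1.26 at the Mkrn3 start. Over in-band windows of the 9 loci it was 1.04, beside 1.06 over all autosomes, and the CpGs of a window share reads.

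**Figure D2:**
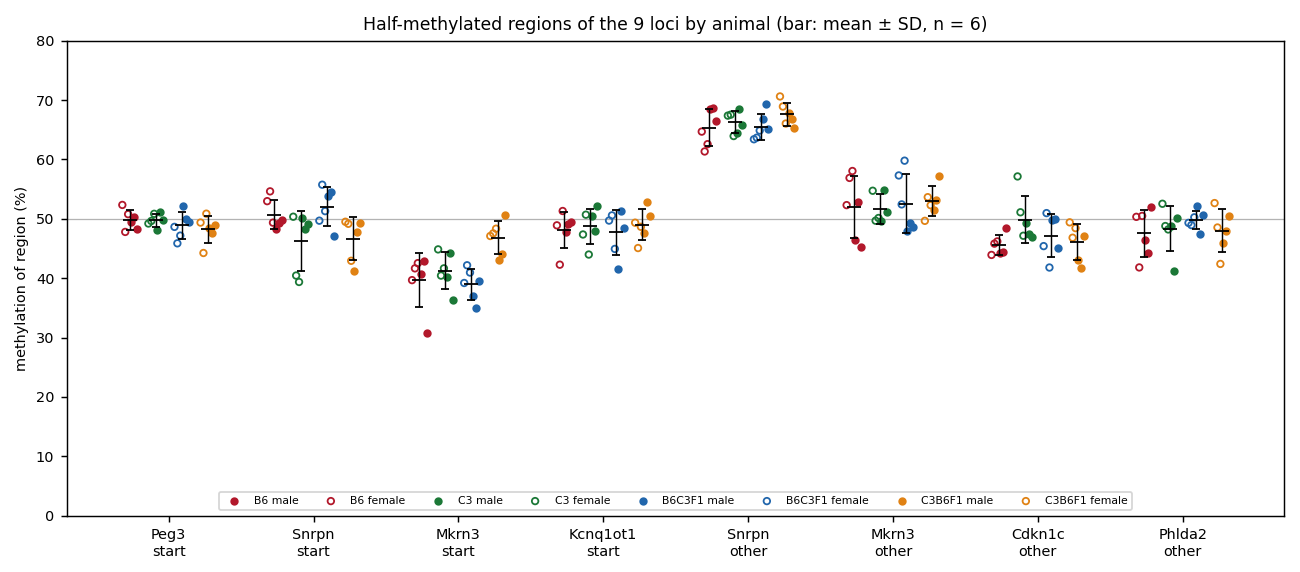
Methylation level (percent) of the half-methylated regions in each animal, by strain or cross, each point being 1 animal (filled for males, open for females) and each bar the mean ± SD of 6. The Peg3 and Kcnq1ot1 points of all groups overlap, whereas at the Mkrn3 start the 6 C3B6F1 animals, from 43.1 to 50.7%, sit above the 6 B6C3F1 animals, from 35.0 to 42.2%.

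The reciprocal crosses ask whether the direction of the cross alters an imprinted region, since the maternal chromosome is B6 in B6C3F1 and C3 in C3B6F1. At Peg3 the lowest, median and highest B6C3F1 animals stood at 45.9, 49.1 and 52.1% and the C3B6F1 animals at 44.2, 48.7 and 50.9%. The groups overlapped almost wholly, and the means differed by 0.645 ± 1.28 percentage points (SE, n = 6 and 6, two-sided exact permutation test p = 0.634). At Kcnq1ot1 the corresponding values were 41.5, 49.1 and 51.3% against 45.1, 49.0 and 52.9%. These overlapped as well, with a difference of -1.25 ± 1.89 points (SE, n = 6 and 6, exact permutation p = 0.537).

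At the Mkrn3 start the B6C3F1 animals stood at 35.0, 39.3 and 42.2% and the C3B6F1 animals at 43.1, 47.3 and 50.7%. Every C3B6F1 animal was above every B6C3F1 animal. The difference was -7.86 ± 1.56 points (SE, n = 6 and 6, exact permutation p = 0.00216, the smallest the 924 splits allow), and p adjusted over all 15902 autosomal half-methylated regions was 0.353. That was the smallest adjusted p that any of these regions reached between the crosses. All 94 autosomal regions that did not overlap share it, since each has the smallest exact permutation p possible. The parental strains overlapped at this region, with B6 at 30.7, 41.2 and 42.8% and C3 at 36.3, 41.0 and 44.9%. Of the 8 regions this 1 did not overlap between the crosses, beside a background of 0.591% of autosomal regions. An unadjusted exact permutation p below 0.05 was reached at 2 of the 8, beside 9.58%.

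At the Snrpn region the B6C3F1 animals stood at 47.0, 52.6 and 55.7% and the C3B6F1 animals at 41.2, 48.5 and 49.5%. The groups overlapped, with the B6C3F1 mean higher by 5.37 ± 2.01 points (SE, n = 6 and 6, exact permutation p = 0.0303, and 0.475 adjusted over the autosomal regions). The region did not shift as a whole. Its windows beginning at 67150001 and 67149501 differed by 21.7 and 5.15 points, but those at 67149001 and 67148501 by -5.68 and -1.77 points. In 6 of the 12 tests that left out 1 animal the exact permutation p was above 0.05, up to 0.0671. The 4 regions away from starts gave p from 0.119 to 0.883 in the same test. The mean over the 4 regions at starts was 46.9% ± 1.04 in B6C3F1 and 47.7% ± 1.69 in C3B6F1 (SD, n = 6 each, exact permutation p = 0.357). That mean combines regions of opposite sign, and with a band of 40 to 60% and at least 3 windows, which leaves out the Mkrn3 start, the difference was 1.59 points (exact permutation p = 0.121).

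Of the other comparisons, B6 against C3 parents separated none of the 8 regions, beside a background of 14.2% of autosomal regions, and gave an unadjusted exact permutation p below 0.05 at 1 of 8, beside 36.4%. The lowest p was at the region upstream of Cdkn1c, a cyclin-dependent kinase inhibitor, where B6 stood at 45.5% ± 1.69 and C3 at 49.9% ± 3.91 (SD, n = 6 each, exact permutation p = 0.0173). Sires against dams separated none (background 3.08%), with a lowest exact permutation p of 0.0823, where 14.6% of autosomal regions were below 0.05. Dams against F1 daughters separated none (background 1.47%), and the lowest p, 0.0714 by the exact permutation test, was at Peg3, 50.1% ± 1.57 in dams and 47.7% ± 2.42 in daughters (SD, n = 6 each), where 11.9% of autosomal regions were below 0.05.

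For comparison, 11 half-methylated regions were found by the same rule at H19 and Meg3, which are methylated on the paternal copy, and at Mest, Peg10, Plagl1 and Grb10, which are maternally methylated genes of other chromosomes. Between the crosses 1 of the 11 did not overlap, the Meg3 region, at 48.3% ± 2.80 in B6C3F1 and 53.5% ± 2.32 in C3B6F1 (SD, n = 6 each, exact permutation p = 0.00216), beside the 0.591% of autosomal regions. An unadjusted exact permutation p below 0.05 was reached at 4 of the 11, beside 9.58%. The others were a Peg10 region, higher in B6C3F1 by 4.65 points (exact permutation p = 0.00433), and an H19 region, higher by 4.06 points (exact permutation p = 0.0108). The last was the Mest region, at -3.54 points (exact permutation p = 0.0476). Those Peg10 and H19 regions, beginning at 4687501 and 149751001, lay at the edges of their loci. The Peg10 region nearer the start differed by 0.557 points (exact permutation p = 0.613). The other H19 regions gave exact permutation p from 0.398 to 0.771. B6 against C3 parents separated 2 of the 11 regions (background 14.2%). The B6 minus C3 difference was 12.9 points at a Grb10 region and -6.11 points at an H19 region (exact permutation p = 0.00216 at each). That Grb10 region, beginning at 11830001, lay at the end of the gene, and the H19 region was the one beginning at 149751001. The Grb10 region nearer the starts, beginning at 11925001, differed by -4.70 points (exact permutation p = 0.0649). The mean of the member regions at starts minus the mean of the H19 and Meg3 regions differed between the crosses by -0.257 points (exact permutation p = 0.835, n = 6 and 6). Against Meg3 alone it was 4.42 points (exact permutation p = 0.0238) and against H19 alone -1.43 points (exact permutation p = 0.346).

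Low C3 depth and a large cross difference were found together at the Snrpn start. Its window, chr7:67150001-67150500, had 11 CpGs, and the normalised read depth of C3 parents there was 0.632 of that of B6 parents, the lowest ratio among the windows of the 9 loci. B6C3F1 animals stood at 45.1, 58.4 and 70.1% (lowest, median and highest) and C3B6F1 animals at 22.9, 36.7 and 51.8%. The groups overlapped, and the parents were closer together, at 54.6% ± 5.94 for B6 and 47.3% ± 6.18 for C3 (SD, n = 6 each). The cross difference of 21.7 points was the largest of the in-band windows, with an unadjusted limma p of 1.6e-05 and p adjusted over all windows of 0.271.

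Within that window the difference was steepest at the CpGs 139 and 127 bp before the start, the first and second capitals of the Snrpn sequence above. These were chosen after their values were seen, so no test was run. At 127 bp before the start the pooled level was 73.5% in B6C3F1 but 19% in C3B6F1, and 57.8% in the B6 and 54.2% in the C3 parents, the last from 48 reads. At 139 bp it was 78.7% in B6C3F1 and 16.1% in C3B6F1, and 52.7% and 48.5% in the B6 and C3 parents, with 33 C3 reads. Over both CpGs the 6 C3 animals had 7 to 20 reads each and ran from 33.3 to 85.7%, so that one C3 male stood above every B6C3F1 animal (62.5 to 82.8%). The C3 depth at these CpGs was 0.381 and 0.269 of the B6 depth. The SNV list had its nearest entry 2133 bp beyond the farther one, and insertions and deletions were not analysed here. The part of read depth in the Snrpn difference was not tested.

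**Figure D3:**
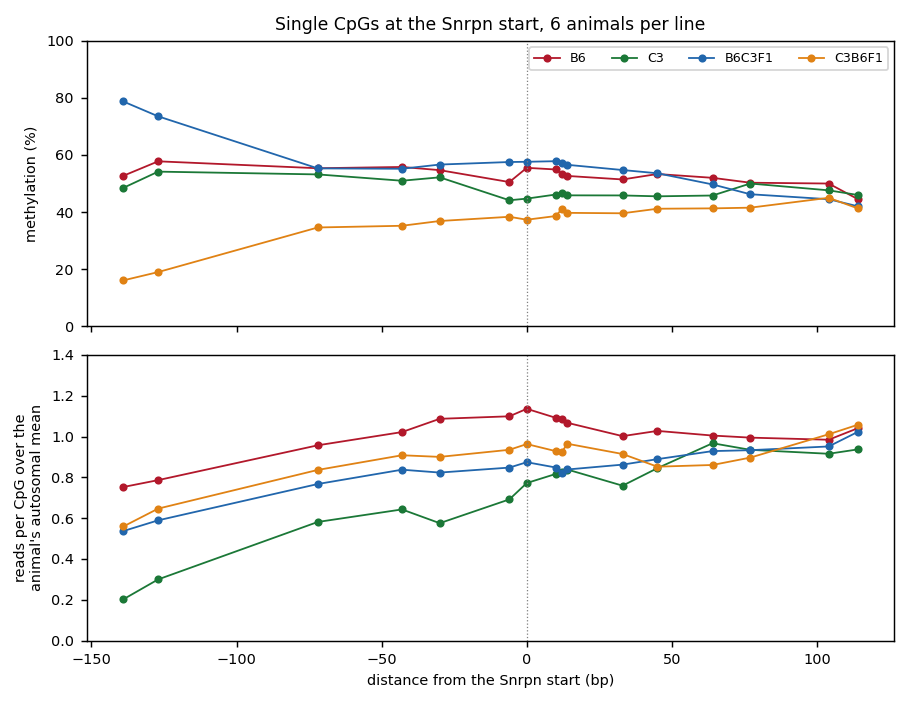
Methylation level (percent, upper panel) and normalised read depth (lower panel) of the CpGs around the Snrpn start, against distance from the start (bp), for B6, C3, B6C3F1 and C3B6F1, each line pooling 6 animals and depth given relative to each animal's autosomal mean. Before the start the levels of the crosses part and the C3 depth is lowest, 0.269 of B6 at 139 bp before it.

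Over the 57 in-band windows, cross difference and C3 to B6 depth ratio had a Pearson r of -0.499 and a Spearman rho of -0.193, as a description over windows that share libraries. Without the Snrpn start window they were -0.199 and -0.149 over 56 windows, so most of the linear relation lay in that 1 window. The median depth ratio was 1.04 at the 9 loci, and 5 windows (1.29%) were below 0.8, beside 9.35% over all autosomes. The in-band window with the next lowest ratio, 0.756, was chr7:150651001-150651500 upstream of Cdkn1c, where B6C3F1 was higher by 5.70 points (limma adjusted p = 0.731). In the Mkrn3 window chr7:69565001-69565500 the ratio was 1.08. There the B6C3F1 mean was 34.3% and the C3B6F1 mean 44.6%, with an unadjusted limma p of 0.000467 and an adjusted p of 0.471.

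**Figure D4:**
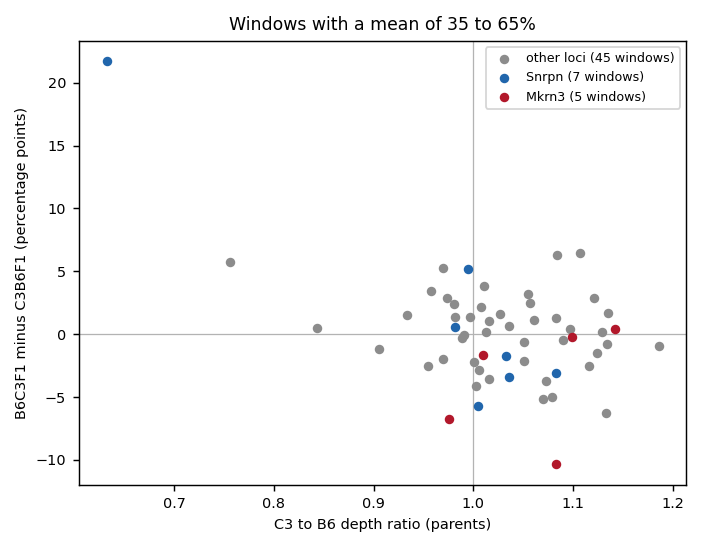
Difference between the crosses (B6C3F1 minus C3B6F1, percentage points) against C3 to B6 read depth ratio, each point being 1 of the 57 in-band windows. The Snrpn start window lies apart at a ratio of 0.632 and a difference of 21.7 points, and the other 56 windows lie between -10.4 and 6.42 points.

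Promoters were measured from 1000 bp before to 500 bp after the start. Over the 24 animals Peg3 averaged 49.7% and Snrpn 47.6%, and every CpG of both was in the 35 to 65% band. Mkrn3 followed at 36.7%, Cdkn1c at 33.0%, Magel2, a regulator of ubiquitin ligases, at 29.7%, Ndn, which encodes the neuronal protein necdin, at 21.6% and Zim1, a zinc-finger gene, at 20.2%, with 0 to 26.0% of their CpGs in the band. Kcnq1, a potassium channel gene, at 10.3% and Phlda2, a gene that restrains placental growth, at 3.45% were lowest.

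In this order, from Peg3 through Snrpn, Mkrn3, Cdkn1c, Magel2 and Ndn to Zim1, each promoter overlapped the next between animals, Snrpn running from 29.4 to 61.3% and Mkrn3 from 27.1 to 47.1%. Kcnq1 ran from 6.62 to 14.2% and Phlda2 from 2.06 to 5.11%, apart from each other and from every other member. Among 20260 autosomal protein-coding promoters, 60.0% were below 20%, 7.0% from 20 to 35% and 7.13% from 35 to 65%.

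The secondary promoters varied along their length. In bins of 250 bp, Zim1 rose from 1.1% just before the start to 45.4% in the bin from 250 bp after it. Ndn rose from 14.0% at the start to 40.7% in the bin from 750 bp, and Mkrn3 from 24.5% to 70.8% over the same distance. Magel2 was lowest in the bin at its start, 20.2%, and reached 70.9% in the bin from 750 bp. Cdkn1c had the broadest low stretch, from 19.4 to 33.9% in every bin from 500 bp before to 1750 bp after its start, whereas Kcnq1 stood at 1.8 and 2.3% on either side of its start and Phlda2 at 1.8 and 1.5%.

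**Figure D5:**
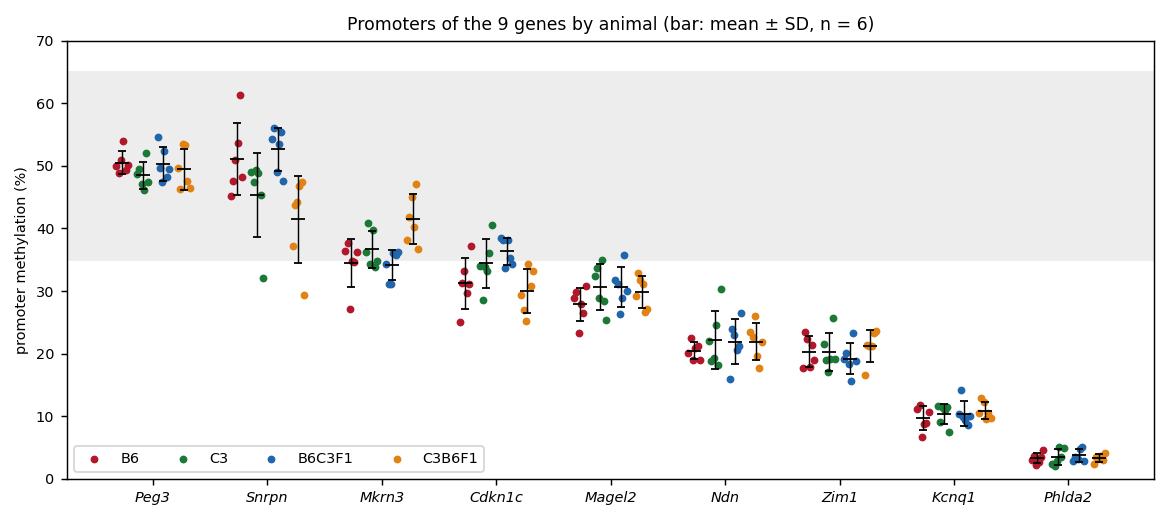
Methylation level (percent) of the 9 promoters in each animal, each point being 1 animal and each bar the mean ± SD of 6, with grey shading for 35 to 65%. At this promoter length, 1000 bp before to 500 bp after the start, Snrpn and Mkrn3 are the promoters whose B6C3F1 and C3B6F1 animals do not overlap, in opposite directions. Phlda2 lies below 5.2% in every animal.

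Of the 9 promoters 2 did not overlap between the crosses, beside a background of 0.469% of autosomal promoters, and 3 of 9 had an unadjusted exact permutation p below 0.05, beside 8.03%. Those 2, Snrpn and Mkrn3, share most of their CpGs with the regions at the same starts. The promoter counts are therefore not independent of the region counts above. At the Snrpn promoter B6C3F1 animals stood at 47.6, 53.9 and 56.1% and C3B6F1 animals at 29.4, 44.0 and 47.5%. Every B6C3F1 animal was above every C3B6F1 animal, the closest pair standing at 47.6 and 47.5%. The means differed by 11.2 ± 3.17 points (SE, n = 6 and 6, exact permutation p = 0.00216, and 0.462 adjusted over all promoters). No autosomal promoter reached a smaller adjusted p between the crosses, and all 95 promoters that did not overlap share this value. This promoter includes the CpGs with the low C3 depth.

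At the Mkrn3 promoter B6C3F1 animals stood at 31.1, 35.0 and 36.2% and C3B6F1 animals at 36.8, 41.1 and 47.1%. The order was the reverse of Snrpn, by -7.41 ± 1.89 points (SE, n = 6 and 6, exact permutation p = 0.00216, adjusted 0.462). At the Cdkn1c promoter B6C3F1 animals stood at 33.7, 36.7 and 38.5% and C3B6F1 animals at 25.2, 30.1 and 34.3%. These overlapped slightly, with the mean higher in B6C3F1 by 6.36 ± 1.67 points (SE, n = 6 and 6, exact permutation p = 0.00433, adjusted 0.513). With 500 bp on either side of the start the Cdkn1c animals did not overlap, at 28.9 to 34.0% against 17.3 to 27.8% (exact permutation p = 0.00216).

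The other 6 promoters gave exact permutation p from 0.195 to 1 between the crosses. Against strain no member promoter was separated (background 6.18%), nor between sires and dams (background 0.523%) or dams and F1 daughters (background 0.301%). The lowest p of those was at Phlda2, 2.70% ± 0.599 in sires and 4.07% ± 0.968 in dams (SD, n = 6 each, exact permutation p = 0.0216). With 500 bp on either side of the start the Phlda2 difference was -0.284 points (exact permutation p = 0.396). An unadjusted exact permutation p below 0.05 was thus reached at 0 of 9 for strain (background 22.2%), 1 for sires against dams (6.26%) and 0 for dams against daughters (4.8%). The promoter backgrounds for strain were not matched to the low SNV density of the loci either.

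Neighbouring imprinted genes of the same domains gave the wider setting, with promoters of 15 of 17 listed genes placed on mm9. Levels below 20% were found at 6, among them the ubiquitin ligase gene Ube3a at 0.304%. A further 3 were from 20 to 35%, 3 from 65 to 80% and 1, Zim2, above 80%. The 2 from 35 to 65% were Snurf, whose promoter holds the same CpGs as that of Snrpn, and Kcnq1ot1 at 48.9%.

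Single windows were tested over all autosomes with limma on the log2 ratio of methylated to unmethylated counts. Requiring both an adjusted p below 0.05 and 20 points or more between groups, 0 windows of the 9 loci were called in each of the 5 comparisons, beside backgrounds of 0.000686% for the crosses, 0.494% for strain, 0.104% for sires against dams, 0.0198% for dams against daughters and 0.051% for F1 sons against daughters. Unadjusted p was below 0.05 in 32, 51, 33, 33 and 23 of the 389 windows, beside 6.69, 18.9, 11.6, 7.94 and 7.02% of all windows. With a minimum of 10 points, 2 windows were called for sires against dams (background 0.573%). With no minimum difference the crosses and the dams against daughters again gave 0 windows (backgrounds 0.00192% and 0.181%).

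Strain gave 8 windows at an adjusted p below 0.05 with no minimum difference, 1 higher and 7 lower in B6 (backgrounds 2.34% and 4.29%). Leaving out 1 animal gave 3 to 10 windows, and the background windows were not matched to the low SNV density of the loci. The largest differences lay beside Phlda2 and within Kcnq1. At chr7:150698001-150698500 the B6 animals stood at 69.0, 77.1 and 77.6% and the C3 animals at 82.0, 83.2 and 85.3%, without overlap (limma adjusted p = 0.00320). In the Kcnq1 intron window chr7:150466501-150467000 B6 stood at 47.6, 51.7 and 61.0% and C3 at 57.8, 61.0 and 66.7%, which overlapped (limma adjusted p = 0.0191). At chr7:150690501-150691000, before the start of Phlda2, B6 stood at 64.9, 71.6 and 78.1% and C3 at 72.5, 81.3 and 85.7%, again with overlap (limma adjusted p = 0.0264). The 1 window higher in B6, chr7:150339501-150340000 in a Kcnq1 intron, stood at 24.4, 27.1 and 32.5% in B6 and 15.2, 20.8 and 26.2% in C3, with slight overlap (limma adjusted p = 0.0331). In the offspring of both crosses this window averaged 20.2 to 21.9%, near the C3 mean of 20.2%, whereas the Phlda2 window at chr7:150698001-150698500 averaged 78.8 to 79.3%, between the parental means of 75.1 and 83.4%.

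Sires against dams gave 6 windows, 2 higher and 4 lower in sires (backgrounds 0.462% and 0.512%), and F1 sons against daughters gave 1 (background 0.343%). When 1 animal was left out, the count for sires against dams ran from 2 to 6. The F1 window was among those of the parents: at chr7:150619501-150620000, past the end of Kcnq1, sires stood at 82.0, 86.5 and 91.7% and dams at 70.1, 75.8 and 83.3% (limma adjusted p = 0.00646). In the offspring, sons stood at 83.3, 88.1 and 91.9% and daughters at 72.4, 79.8 and 81.9%, without overlap (limma adjusted p = 0.0239). This F1 call was lost in 7 of the 12 fits that left out 1 animal, and in the fit with neither trended nor robust variances. Upstream of Cdkn1c, at chr7:150650501-150651000, sires stood at 1.7, 6.0 and 9.1% and dams at 10.6, 13.2 and 20.9%, without overlap (limma adjusted p = 0.0240). In F1 animals that window overlapped between the sexes, from 6.3 to 15.4% in sons and 6.0 to 20.2% in daughters.

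The other named windows of this comparison lay in Kcnq1 introns. At chr7:150459501-150460000 sires stood at 45.1, 48.5 and 59.8% and dams at 58.7, 60.8 and 67.7% (limma adjusted p = 0.00777). In the adjoining window, chr7:150459001-150459500, sires stood at 73.8, 78.5 and 83.6% and dams at 85.5, 86.2 and 87.5%, without overlap (limma adjusted p = 0.0311). At chr7:150497501-150498000 the order was reversed, with sires at 88.9, 95.0 and 96.0% and dams at 84.9, 88.2 and 90.6% (limma adjusted p = 0.0439). The strain dependence of the difference between sires and dams, tested as an interaction in limma, was past an adjusted p of 0.05 in 0 of the 389 windows (background 0.00178%), and unadjusted p was below 0.05 in 14 (background 5.42%).

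Motifs were counted on both strands as a property the choice of loci did not use. TGCCGC, the sequence that the imprint-keeping protein ZFP57 binds when methylated, occurred 8 times in the Peg3 region, 10 times in the Snrpn region and 3 times each in the Kcnq1ot1 region and at the Mkrn3 start. It was in 8 of the 21 in-band windows of the regions at starts (38.1%), beside 7.01% of all windows. This motif holds a CG and the windows were not matched for CpG number, so the shares do not measure enrichment beyond CpG density. Levels at the TGCCGC CpGs were 47.0 to 48.6% in the Peg3 region, 46.0 to 50.3% in the Snrpn region and 52.9 to 54.7% in the Kcnq1ot1 region. At the Mkrn3 start they were 62.3 to 76.3%, over 3 CpGs. The other CpGs had medians of 48.6% in the Peg3 region, 48.9% in the Snrpn region and 48.6% in the Kcnq1ot1 region. At the Mkrn3 start the other CpGs had a median of 31.4% and ran from 9.62 to 94.2%. GCCATNTT, a YY1 motif, occurred 12 times in the Peg3 region, 2 times at the Mkrn3 start and 0 times in the Snrpn and Kcnq1ot1 regions. It was in 6 of those 21 windows (28.6%), beside 10.7% of all windows.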

How the data were processed

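Liver DNA of 24 mice was profiled by whole-genome bisulfite sequencing. The authors filtered reads to a mean base quality above 20, aligned them with Bismark 0.7.8 over Bowtie 0.12.8 to mm9, removed duplicates, and deposited raw counts of methylated and unmethylated reads per CpG. The deposited SNV list gives B6 and C3 bases; its caller is not given in the sources used here. Counting covers 19751474 CpGs, 18887127 of them autosomal.

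Levels are methylated counts over all counts. Windows were tested with limma 3.58.1 (R 4.3.3) on log2((methylated + 1)/(unmethylated + 1)) with 8 group means, trended and robust variances, and Benjamini-Hochberg adjustment over all windows; regions and promoters with two-sided exact permutation tests. The scripts were tested on simulated data. A promoter uses the annotated start with most CG dinucleotides within 500 bp. Named windows are the 3 largest differences per direction among those called. Sequences and motifs were read from mm9, and Zim2, Snurf and Kcnq1ot1 starts were placed by matching RefSeq promoters. The members and lists were chosen with earlier results of these data known. Alternatives are given in the closing section. Read counts per CpG limit precision, and no batch is given in the labels.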

Additional observations from a re-analysis of the deposited data

Results flagged for a closer look

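In 5 of 68 groups of 6 animals, 1 animal stood apart from the other 5 by Dixon's criterion, which chance meets in about 1 in 20 groups. At the Mkrn3 start region B6 male 3 was at 30.7%, the other B6 animals at 39.7 to 42.8%, and at the Mkrn3 promoter the same animal was at 27.1%, the others at 34.6 to 37.7%. At the Snrpn promoter C3 female 3 was at 32.1%, the other C3 animals at 45.3 to 49.3%. At the Zim1 promoter C3B6F1 male 1 was at 16.6%, the others at 21.2 to 23.6%. At the Kcnq1 promoter B6C3F1 male 2 was at 14.2%, the others at 8.53 to 10.3%.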

How the results depend on the processing

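The count of 48 near-50% windows of 389 became 25 with a 40 to 60% band and 25 with the band applied to each animal (45 to 49 leaving out 1 animal). With at least 10 CpGs per window it was 20, but of only 93 windows. No autosomal share was computed for these settings. Strain windows numbered 4 with at least 100 reads and 3 to 10 leaving out 1 animal, sex windows of the parents 3 without trended or robust variances and 2 to 6 leaving out 1 animal, and the F1 sex window was lost (0) without them and in some omissions (0 to 1). The strain count fell to 3 without B6 female 1, 4 without B6 male 3 or B6 female 3, and 5 without B6 male 2, C3 male 3 or C3 female 3. The parents' sex count fell to 2 without B6 female 3 and 3 without B6 male 2, B6 male 3, B6 female 1, C3 male 1 or C3 female 2. The F1 window was lost without B6C3F1 male 1 or 2, B6C3F1 female 1, C3B6F1 male 2, or C3B6F1 female 1, 2 or 3. At 10 points, 2 parental sex windows were called instead of 0, beside 0.573% of all windows.

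The mean cross difference over regions at starts turned to 1.59 points (p = 0.121, exact permutation test) with a 40 to 60% band and at least 3 windows, which drops the Mkrn3 region; leaving out 1 animal gave -1.29 to -0.341, and for the other comparisons 0.0438 to 1.06 (strain), -0.534 to 0.483 (sires and dams) and -0.967 to -0.0598 (dams and daughters). The difference from paternally methylated regions was 4.42 against Meg3 alone (exact permutation p = 0.0238), and -0.926 to 0.428 leaving out 1 animal. The variance ratio was 1.08 with at least 20 reads. Signs turned at Peg3 (-0.933) and Kcnq1ot1 (0.710) in females alone, at Peg3 for strain with unweighted levels (-0.0821), at the Ndn promoter with 500 bp on either side (1.50) and in females (3.12), at the Magel2 promoter in males (-1.58), and at the Phlda2 promoter with 500 bp on either side for strain (0.0450) and for dams against daughters (-0.426). Exact permutation tests in males or females alone, 3 against 3, cannot go below p = 0.1. Leaving out 1 animal also turned signs of small differences: between the crosses at the Peg3 (-0.153 to 1.25) and Kcnq1ot1 (-2.03 to 0.00713) regions and the Peg3 (-0.0235 to 1.64), Ndn (-0.942 to 1.18) and Magel2 (-0.195 to 1.67) promoters; for strain at Peg3 (-0.475 to 0.435), Mkrn3 (-2.59 to 0.212) and Kcnq1ot1 (-1.60 to 0.533); for sires and dams at Snrpn (-0.390 to 2.66); and for dams and daughters at Kcnq1ot1 (-1.41 to 0.403).

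The Snrpn region lost its unadjusted exact permutation p below 0.05 in 6 of 12 omissions, with 4.27 to 6.36 points and p up to 0.0671. These were B6C3F1 male 1 or 2, B6C3F1 female 2 or 3, C3B6F1 male 1 or C3B6F1 female 3. In the same exact permutation tests, calls were gained at the Peg3 region in dams against daughters without B6 female 2 (2.87 points, p = 0.0411) or C3B6F1 female 3 (3.04 points, p = 0.0238), and at the Zim1 promoter between the crosses without C3B6F1 male 1 (-2.91 points, p = 0.0411). The Mkrn3 region (-8.60 to -7.06) and the Snrpn, Mkrn3 and Cdkn1c promoters kept an unadjusted exact permutation p below 0.05 in all 12. With all animals, none of these was below 0.05 after adjustment over all autosomal regions or promoters. With the replicate number as a block the Snrpn region gave p = 0.0938 and the mean over regions -0.774 (p = 0.438), by exact sign-flip tests. Strain windows were then 9, parental sex windows 5 and F1 windows 1. Same-numbered animals had correlations of -0.0088 to 0.0649 (median 0.00584), and other-numbered animals of -0.0348 to 0.0183 (median -0.00209). Values this small cannot tell whether the number marks a family. With promoters cut to 500 bp on either side, Phlda2 in sires against dams lost its exact permutation p below 0.05 (p = 0.396) and Cdkn1c gained one (p = 0.0476). Between the crosses the shorter Cdkn1c promoter no longer overlapped, with a difference of 7.38 points (exact permutation p = 0.00216). Omissions of single animals apart, 82 of 92 alternatives for the counts and summary values changed no direction or call. For single regions and promoters, 89 of 110 changed no direction and stayed on the same side of an unadjusted p of 0.05.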
